A study of Homo sapiens with 6 samples.

Results

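The DNA replication machinery was followed as 41 genes that were chosen by symbol, from the proteins that mark replication origins to the enzymes that supply deoxynucleotides. All 41 were found among the 60835 distinct gene symbols of the deposited count table, and all 41 passed the filter on low counts that left 15911 genes for testing. PANC-1, an established cell line grown from a human pancreatic carcinoma, served as host after knockout of its SMAD4 gene. Both groups carried that knockout and received SMAD4 by transfection, either wild-type (WT) or with the R272K change (an arginine replaced by a lysine), with 3 libraries of polyadenylated RNA each on day 3. Knockout cells without added SMAD4 were not analysed here, the labels do not say whether the knockout line is 1 clone, and they do not say whether replicates were separate cultures, so the spread between libraries may be technical.

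Replication begins in G1, when the origin recognition complex, CDC6 and CDT1 load rings of the MCM helicase onto DNA. In S phase the rings are activated by CDC45 and the GINS complex, primers are laid down by polymerase alpha and primase, and the clamp PCNA holds the main polymerases on the template. Many of these genes are transcribed together under E2F factors as cells pass from G1 into S, whereas genes for mitosis peak later and often carry another promoter element, the cell cycle homology region (CHR). SMAD4 is the shared partner of the SMADs that carry TGF-β family signals, and TGF-β is known to hold epithelial cells in G1.

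The libraries held 14776148 to 17706201 counts, and WT replicate 1 stood apart from the other WT libraries in chi-square per degree of freedom of its counts, 11.5 and 15.8 against 2.53 between WT replicates 2 and 3. SMAD4 stood at 83.4, 93.6 and 89.0 CPM (counts scaled to a common library size) in the WT libraries and 40.6, 45.6 and 43.6 CPM in the R272K libraries. It was thus lower in every R272K library, with a log2 fold change (R272K over WT, as throughout) of -1.03 (SE 0.075, adjusted p = 6.28e-06 in edgeR's quasi-likelihood test). The amount of SMAD4 transcript and the substitution cannot be told apart in this design. Of 6 epithelial markers KRT8, KRT18 and KRT19 were high, at means of 2749, 1458 and 307 TPM (a length-scaled abundance), and KRT7, EPCAM and CDH1 low, at 7.58, 8.53 and 2.96 TPM. All endothelial, acinar and islet markers stayed at or below 0.431 TPM in every library, as did PTPRC and CD3E of blood cells, while CD14 stood at 3.89 to 6.51 TPM. The summed epithelial list of 6 genes ran from 3937 to 4447 TPM with WT and from 4718 to 5189 TPM with R272K, and a fibroblast list of 4 genes from 72.0 to 83.9 and from 122 to 133 TPM, nearly all of it COL1A1 with PDGFRA, DCN and LUM at or below 0.635 TPM. The part of these differences in the results was not tested.

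Letters of the E2F motif, which the choice of genes did not use, stand in some of the replication promoters, and the following sequences show examples with a match. RefSeq promoters (GRCh38.p14) were at hand for 36 of the 41 genes; MCM4, MCM5, GINS4, RPA2 and RPA3 were not analysed here. The 250 bases before each start were searched on both strands for the E2F letters TTTCCCGC, TTTCGCGC, TTTGCCGC and TTTGGCGC. Matches can overlap where these letters run into a reverse complement from the same set. The 160 bases before the start of MCM6 (chr2:135876444-135876603, minus strand), CDT1 (chr16:88803629-88803788, plus strand) and RFC3 (chr13:33817989-33818148, plus strand) are printed 5′ to 3′ with these matches in capitals. HMMR (chr5:163460472-163460631, plus strand), a mitotic gene, is printed for contrast with its CHR letters TTTGAA in capitals.
MCM6: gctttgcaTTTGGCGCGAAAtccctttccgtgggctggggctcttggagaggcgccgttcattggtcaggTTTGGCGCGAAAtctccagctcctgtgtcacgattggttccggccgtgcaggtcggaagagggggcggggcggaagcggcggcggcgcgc
CDT1: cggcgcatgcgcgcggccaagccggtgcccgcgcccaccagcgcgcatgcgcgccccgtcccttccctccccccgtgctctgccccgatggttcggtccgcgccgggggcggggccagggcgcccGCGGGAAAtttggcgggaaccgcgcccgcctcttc
RFC3: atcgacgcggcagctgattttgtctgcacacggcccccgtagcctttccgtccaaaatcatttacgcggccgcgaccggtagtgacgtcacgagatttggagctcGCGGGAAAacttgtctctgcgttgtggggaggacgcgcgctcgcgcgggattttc
HMMR: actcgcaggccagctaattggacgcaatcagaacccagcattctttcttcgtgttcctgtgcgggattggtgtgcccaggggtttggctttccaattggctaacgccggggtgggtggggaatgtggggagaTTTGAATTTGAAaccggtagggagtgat

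An E2F match at any listed start was found for 13 of the 36 replication genes (36.1%), for 3 of 28 mitotic genes (10.7%) and for 5.45% of the 11183 tested genes with a promoter in the table. For the CHR letters, TTTGAA or TTCGAA on either strand, the mitotic list came first, with 16 of 28 genes (57.1%). Tested genes followed with 13.4%, and replication genes came last with 2 of 36 (5.56%). CCAAT, a general promoter box also searched on both strands, was found for 22 of 36 replication genes (61.1%), 22 of 28 mitotic genes (78.6%) and 40.9% of tested genes. MCM6 held 4 E2F matches, in 2 overlapping pairs. A match of letters is a description of the promoter and was not tied to binding in these cells.

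No replication gene passed the test for a difference between WT and R272K SMAD4. At an adjusted p below 0.05 edgeR's test called 0 of the 41, beside 1.21% of all genes tested (0.685% higher and 0.528% lower). At an unadjusted p under 0.05 there were 0 of 41 beside 14.3% of all genes, and DESeq2 and limma-voom likewise called 0 and gave 0 at that unadjusted threshold. The adjusted p-values ran from 0.387 for RFC2 to 0.994 for TYMS. The log2 fold changes lay between -0.22 and 0.15, 23 above and 18 below 0, with a median of 0.02 beside 0.00 over all genes. CPM values are shares of a library, so the share of cells in S phase and the RNA per cell cannot be told apart in them.

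The interval of each gene, taken singly in the main fit, shows how large a difference these libraries leave room for. The 95% interval of every one of the 41 fold changes held 0 and lay inside a 1.5-fold change in either direction. The bound farthest from no change was 1.38-fold, for GINS3. The members had 202 to 4826 counts per library, and their standard errors lay between 0.057 and 0.118 on the log2 scale, with a median of 0.075 beside 0.107 over all genes. Among 8204 genes with a mean in the same range as the members, 14.7 to 279 CPM, the median standard error was 0.082. The median absolute fold change of these genes was 0.09, and for the members it was 0.06. Summed over the 41 genes the level was 3299 ± 66.7 CPM with WT and 3331 ± 25.4 CPM with R272K (SD, n = 3 each), between 0.326% and 0.334% of each library's counts.

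**Figure D1:**
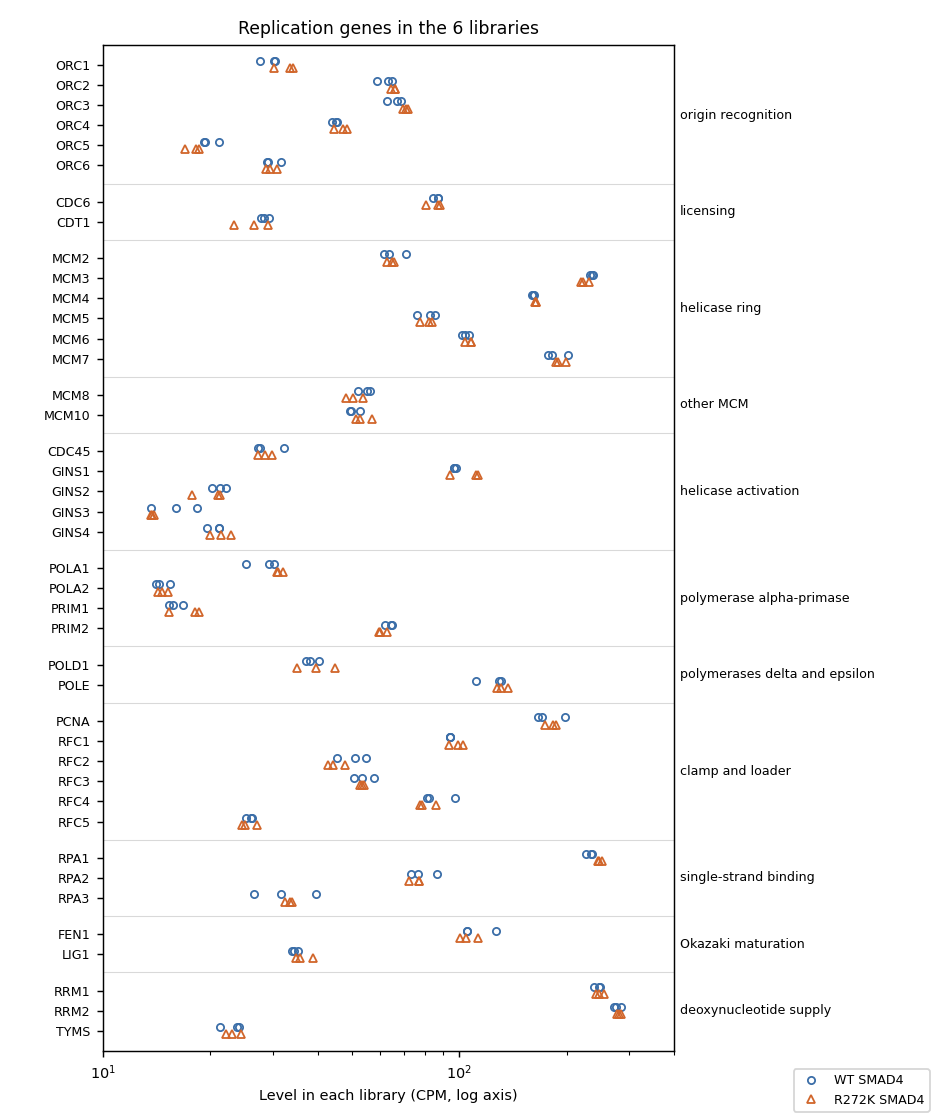
Level of each of the 41 replication genes in each library, in CPM on a log axis, grouped by role; circles are the 3 WT libraries and triangles the 3 R272K libraries. The symbols of both groups lie beside each other on every line, and 6 genes have groups that do not overlap.

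The groups did not overlap for 6 of the 41 genes (14.6%), beside 21.4% of all genes tested (10.9% higher and 10.4% lower). They were ORC3, MCM4, POLA1 and RPA1, higher with R272K, and ORC5 and MCM3, lower with R272K, and were chosen by this count after their values were seen. In MCM4, a subunit of the helicase ring, the WT libraries stood at 160.1, 161 and 162 CPM and the R272K libraries at 164, 163 and 164 CPM, a log2 fold change of 0.02. These groups are separate by less than 1 CPM, and the gene has one of the narrowest intervals of the list, -0.10 to 0.15. In ORC5, a subunit of the origin recognition complex, the values were 21.2, 19.2 and 19.4 CPM with WT and 17.0, 18.2 and 18.6 CPM with R272K, a log2 fold change of -0.15 (-0.35 to 0.05).

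**Figure D2:**
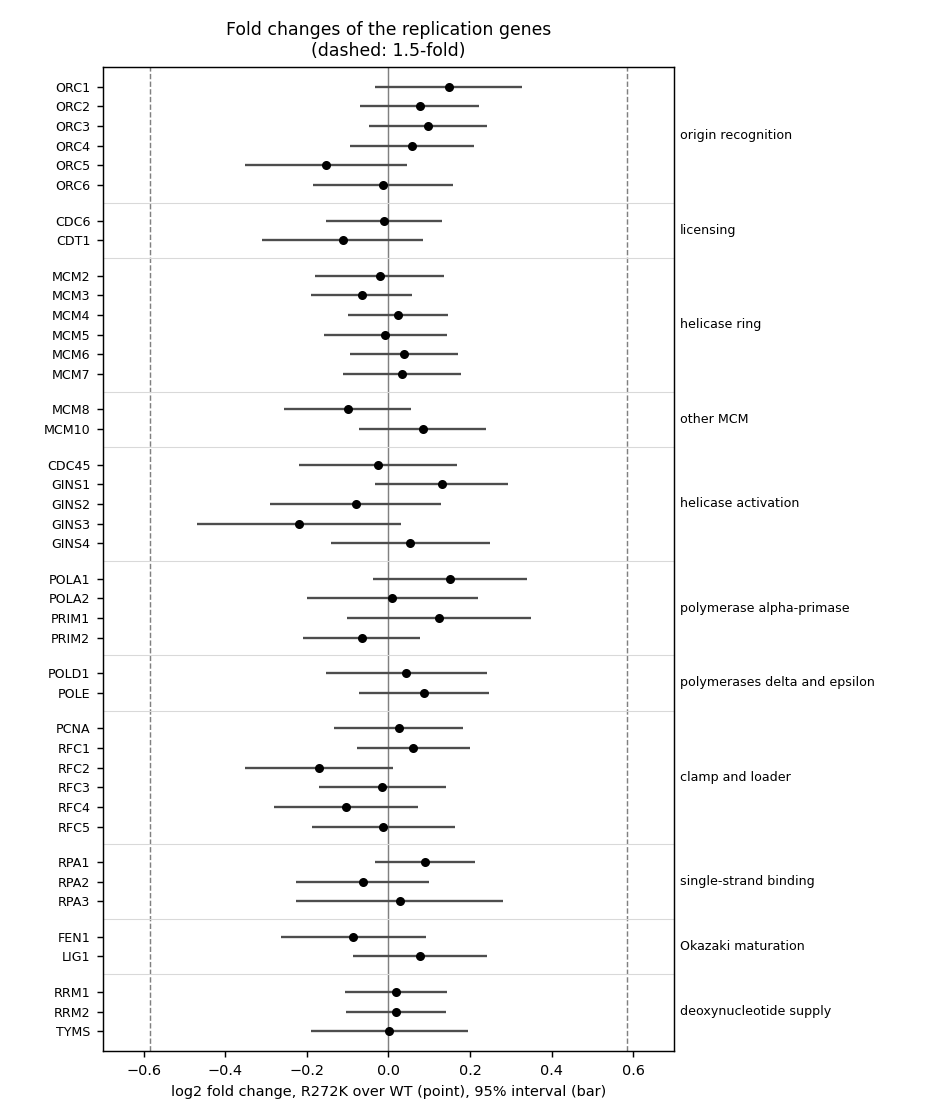
Log2 fold change, R272K over WT, of each replication gene with its 95% interval from the fit over all genes; dashed lines mark 1.5-fold. All 41 bars cross 0 and stay inside the dashed lines, with the end farthest from 0 in GINS3, which runs from -0.47 to 0.03.

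Origin recognition genes encode the 6-subunit complex that marks where replication can start. ORC1, the subunit whose protein is turned over through the cell cycle, stood at 30.2, 27.5 and 30.5 CPM in the WT libraries and 30.1, 34.2 and 33.4 CPM in the R272K libraries. R272K replicates 2 and 3 were above every WT library and R272K replicate 1 was within the WT range. The log2 fold change was 0.15 (SE 0.083, adjusted p = 0.451), the smallest p of the complex. ORC3, a core subunit, stood at 66.9, 62.7 and 68.5 CPM with WT and at 71.9, 69.3 and 70.7 CPM with R272K. All R272K libraries were higher, by a log2 fold change of 0.10 (-0.05 to 0.24, adjusted p = 0.548). ORC2, ORC4 and ORC6 lay between -0.01 and 0.08. Per length the subunits were not level: ORC3 was the most abundant at 85.5 ± 5.38 TPM (SD over 6 libraries) and ORC4 the least at 21.3 ± 0.971 TPM, a ratio of 4.01. The ranges of ORC6 and ORC2 overlapped, as did those of ORC1 and ORC5.

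Licensing factors bring the helicase to the origin. CDC6, the ATPase that joins the origin complex, stood at 87.1, 86.9 and 84.5 CPM with WT and 88.5, 87.4 and 80.7 CPM with R272K SMAD4. The R272K values enclosed the WT values, and the log2 fold change was -0.01 (-0.15 to 0.13, adjusted p = 0.957). CDT1, which escorts the MCM ring and is destroyed once S phase begins, stood at 28.3, 27.7 and 29.3 CPM with WT and 23.4, 26.6 and 29.0 CPM with R272K. R272K replicates 1 and 2 were below every WT library and R272K replicate 3 was within them, with a log2 fold change of -0.11 (-0.31 to 0.09, adjusted p = 0.618) that was -0.03 without R272K replicate 1 and -0.19 without R272K replicate 3. Per length CDC6 was at 58.8 ± 2.12 TPM and CDT1 at 32.2 ± 2.9 TPM, without overlap of their ranges.

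The helicase ring is built of MCM2 to MCM7, which unwind the DNA as a single hexamer. MCM3 (ENSG00000112118, chromosome 6, 52264014 to 52284881, GRCh38) stood at 237, 236 and 232 CPM in the WT libraries and 220.0, 223 and 231 CPM in the R272K libraries. The groups did not overlap, by a margin of under 2 CPM. Its log2 fold change was -0.07 (SE 0.057, adjusted p = 0.65), the smallest p of the ring. The other ring genes lay between -0.02 for MCM2 and 0.04 for MCM6, and all 6 intervals together ran from -0.19 to 0.18.

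The 6 ring transcripts differed in level per length. MCM3 at 224 ± 8.94 TPM and MCM7 at 192 ± 5.71 TPM formed the top, without overlap between their ranges (SD over 6 libraries). MCM4 at 93.5 ± 3.83 TPM and MCM6 at 87.7 ± 2.66 TPM overlapped with each other in the middle. MCM2 at 59.1 ± 4.27 TPM and MCM5 at 55.3 ± 1.82 TPM overlapped at the bottom, and the ratio of MCM3 to MCM5 was 4.05. In MCM2, 23.6% of the annotated exon bases are shared with genes on the opposite strand, and reads from either gene cannot be told apart where counting ignores strand. MCM8, a helicase of DNA repair, stood at 56.0, 52.0 and 55.0 CPM with WT and 53.6, 50.4 and 48.2 CPM with R272K (log2 fold change -0.10, adjusted p = 0.571), with the groups overlapping. MCM10, which helps to activate the ring, stood at 49.4, 52.7 and 49.7 CPM and at 51.3, 56.8 and 52.8 CPM (0.08, adjusted p = 0.638), also overlapping.

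**Figure D3:**
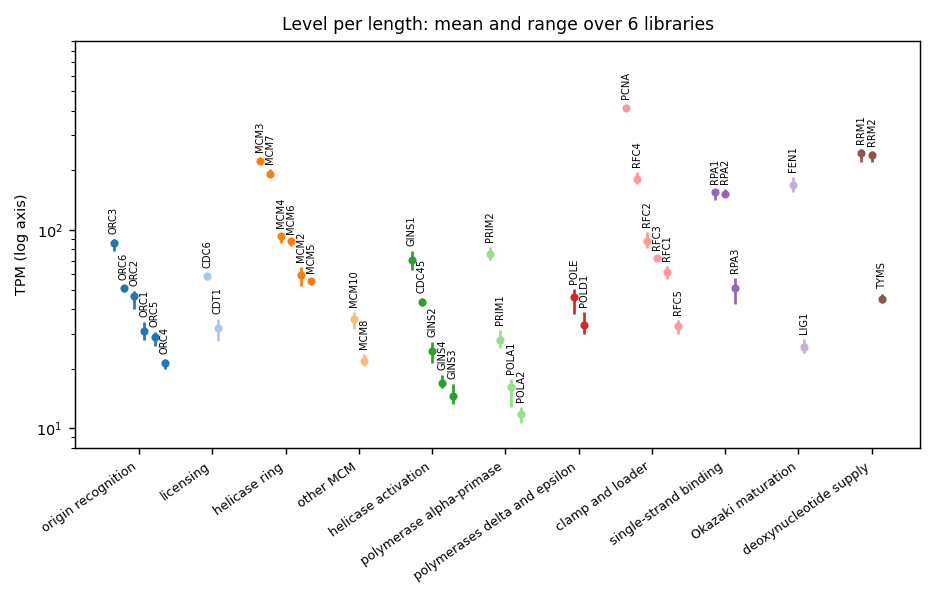
Level per length of each replication gene in TPM on a log axis, grouped by role; points are means and bars the range over the 6 libraries of both groups. Within the helicase ring MCM3 lies above MCM7, both above the overlapping MCM4 and MCM6, and these above the overlapping MCM2 and MCM5.

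CDC45 and the 4 GINS subunits turn the loaded ring into a moving helicase. GINS3 (ENSG00000181938, chromosome 16, 58295080 to 58406147, GRCh38), the lowest of them in level, stood at 18.3, 13.7 and 16.0 CPM in the WT libraries and 13.7, 13.6 and 13.9 CPM in the R272K libraries. The R272K libraries were nearly level, while WT replicates 1 and 3 were above them and WT replicate 2 was among them. The log2 fold change of -0.22 (SE 0.116, adjusted p = 0.418) was the lowest of the 41, and became -0.11 (adjusted p = 0.709) without WT replicate 1 and -0.32 (adjusted p = 0.308) without WT replicate 2. GINS1 stood at 96.9, 96.7 and 97.6 CPM with WT and at 113, 112 and 94.3 CPM with R272K. R272K replicates 1 and 2 were above and R272K replicate 3 below every WT library, and the log2 fold change was 0.13 (-0.03 to 0.29, adjusted p = 0.462), with 0.08 without R272K replicate 1 and 0.21 without R272K replicate 3. CDC45, GINS2 and GINS4 lay between -0.08 and 0.05. Per length the order was GINS1, CDC45, GINS2, GINS4 and GINS3, from 70.7 ± 6.18 to 14.5 ± 1.53 TPM, and GINS4, which shares 23.6% of its exon bases with other genes, and GINS3 overlapped.

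Polymerase alpha and primase lay down the RNA and DNA primers. POLA1 (ENSG00000101868, chromosome X, 24693873 to 24996986, GRCh38), the catalytic subunit, stood at 25.1, 29.2 and 30.3 CPM with WT and 30.8, 30.9 and 32.0 CPM with R272K SMAD4. The groups did not overlap, and WT replicate 1 was the lowest library by a wide margin. The log2 fold change was 0.15 (SE 0.087, adjusted p = 0.464), and 0.07 (adjusted p = 0.718) without WT replicate 1. PRIM2, the large primase subunit, stood at 61.7, 64.3 and 64.9 CPM with WT and 59.9, 59.6 and 62.8 CPM with R272K. The groups overlapped by 1 library each, with a fold change of -0.07 (adjusted p = 0.7). POLA2 and PRIM1 gave 0.01 and 0.12, and 35.1% and 21.6% of their exon bases are shared with other genes. PRIM2 was the most abundant per length at 76.0 ± 4.46 TPM and POLA2, at 11.9 ± 0.775 TPM, was the least abundant of all 41.

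The main polymerases of both strands are represented by their catalytic subunits. POLE, of the leading strand, stood at 111, 131 and 129 CPM with WT and 131, 127 and 137 CPM with R272K. WT replicate 1 was the lowest and the other 5 libraries were mixed, with a log2 fold change of 0.09 (-0.07 to 0.25, adjusted p = 0.632) that became 0.01 without WT replicate 1. POLD1, of the lagging strand, had a fold change of 0.04 and ranged from 35.1 to 44.8 CPM within the R272K group alone.

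PCNA is the sliding clamp, and RFC1 to RFC5 form the loader that opens it. PCNA (ENSG00000132646, chromosome 20, 5114953 to 5126626, GRCh38) was the most abundant of the 41 per length at 414 ± 16.7 TPM, a level made uncertain by 3 named pseudogenes. It stood at 198, 170.5 and 166 CPM with WT and 174, 187 and 183 CPM with R272K. WT replicate 1 was the highest library and the other WT libraries the lowest, around the R272K values. The log2 fold change was 0.02 (-0.13 to 0.18, adjusted p = 0.908). It was 0.11 without WT replicate 1, and -0.01 and -0.03 without WT replicates 2 and 3. RFC2 (ENSG00000049541, chromosome 7, 74231499 to 74254458, GRCh38) had the smallest p of the 41. It stood at 54.9, 45.3 and 50.9 CPM with WT and 44.1, 47.6 and 42.7 CPM with R272K. WT replicate 2 lay among the R272K libraries, and the log2 fold change was -0.17 (SE 0.084, adjusted p = 0.387), or -0.10 (adjusted p = 0.497) without WT replicate 1 and -0.24 (adjusted p = 0.322) without WT replicate 2. The other loader genes lay between -0.10 for RFC4 and 0.06 for RFC1. Per length RFC4 at 181 ± 10.2 TPM was the highest and RFC5 at 32.8 ± 1.99 TPM the lowest of the 5 loader subunits, and no neighbours in that order overlapped.

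RPA1 to RPA3 form the trimer that coats single-stranded DNA. RPA1, the large subunit that binds the DNA, stood at 236, 227 and 234 CPM with WT and 245, 251 and 246 CPM with R272K. All R272K libraries were higher, and the log2 fold change was 0.09 (SE 0.057, -0.03 to 0.21, adjusted p = 0.508). RPA2 gave -0.06. RPA3 gave 0.03 and had the widest error of the list, with WT libraries at 39.6, 31.6 and 26.5 CPM around R272K libraries at 32.5, 33.9 and 33.4 CPM. Per length RPA1 and RPA2 overlapped, at 155 ± 7.83 and 152 ± 4.74 TPM, while RPA3 was lower at 50.8 ± 4.91 TPM.

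FEN1 trims the flaps of Okazaki fragments and LIG1 seals them. FEN1 stood at 127, 105 and 105 CPM with WT and 100.4, 112 and 104 CPM with R272K. WT replicate 1 was again the highest library, and the other 5 were mixed. The log2 fold change was -0.09 (-0.26 to 0.09, adjusted p = 0.68), and 0.01 without WT replicate 1. LIG1 gave 0.08. Per length FEN1 was at 169 ± 9.49 TPM and LIG1 at 25.8 ± 1.4 TPM, a ratio of 6.54.

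Deoxynucleotide supply rests on ribonucleotide reductase and thymidylate synthase. RRM1, the large subunit of ribonucleotide reductase, stood at 239, 246 and 249 CPM with WT and 242, 246 and 255 CPM with R272K SMAD4. The groups lay on top of each other, with a log2 fold change of 0.02 (SE 0.058, -0.11 to 0.14, adjusted p = 0.91). RRM2, the small subunit whose level is known to rise in S phase, gave 0.02 (-0.11 to 0.14) at 277 ± 6.05 and 281 ± 3.27 CPM (SD, n = 3 each). TYMS, the enzyme that makes thymidylate, gave 0.00 (-0.19 to 0.19). RRM1 and RRM2 also overlapped per length, at 243 ± 12.7 and 238 ± 10.9 TPM, where the level of RRM2 is uncertain since 20.2% of its exon bases are shared and it has 3 named pseudogenes. TYMS stood at 44.8 ± 2.07 TPM, but 46.6% of its exon bases are shared with ENOSF1 and TYMSOS on the opposite strand, and it has 2 named pseudogenes, so this level is uncertain. In all, 6 of the 41 genes share at least 20% of their exon bases with another gene in GENCODE release 29. A pseudogene of their name exists for 7, PCNA, RFC3, RFC5, RPA2, FEN1, RRM2 and TYMS, so their levels per length are uncertain too.

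Several of the deviations given so far belong to a single library. In WT replicate 1, short replication genes stood mostly above the mean of the other WT libraries. Longer ones lay on both sides of it, farthest below in POLA1 and POLE, with log2 deviations of -0.12 in ORC2 and 0.11 in MCM5. Over the 41 genes Spearman's rho of that deviation with gene length was -0.60, and over all genes tested it was -0.39; genes share the library and are not independent replicates. The deviation was 0.45 on the log2 scale for RPA3, 0.27 for FEN1, 0.23 for PCNA, -0.23 for POLE and -0.24 for POLA1. Its median was 0.12 over the 23 replication genes shorter than the median tested gene and 0.01 over the 18 others. Without WT replicate 1, 0 of the 41 were called, beside 5.36% of all genes. In that fit 6 had an unadjusted p under 0.05, all higher with R272K: ORC1, MCM7, GINS1, PCNA, RPA1 and RPA3. The share of all genes at that threshold was 17.9%, both directions together, and 28 of the 41 fold changes were positive. The number of genes called over the whole table went from 193 to 875 in the same fit.

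**Figure D4:**
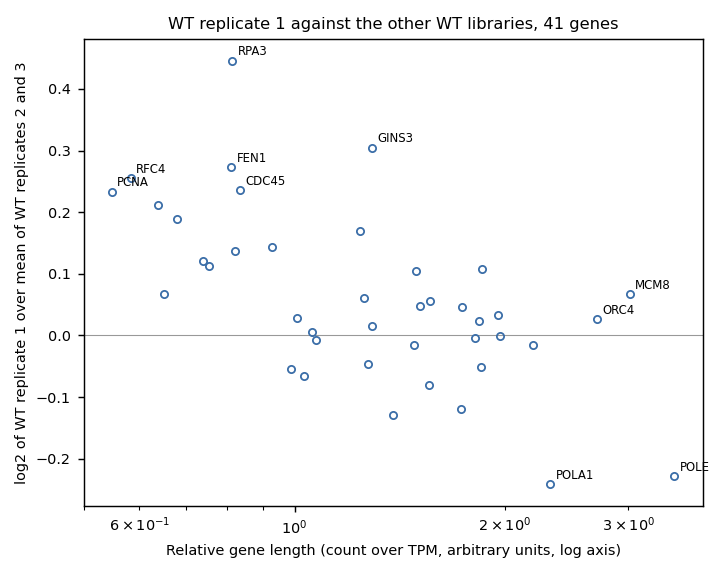
Log2 of the level in WT replicate 1 over the mean of WT replicates 2 and 3, against relative gene length (the ratio of deposited count to TPM, log axis), for the 41 replication genes. Short genes such as PCNA and RPA3 lie above 0 and the long genes POLA1 and POLE below 0, while other long genes such as MCM8 and ORC4 lie near 0.

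Genes that work beside the 41 gave no call either, where edgeR's test called 1.21% of all genes. Among 52 tested genes of a wider replication and S phase list, 0 were called by edgeR, DESeq2 or limma-voom, and 3 were higher and 3 lower at an unadjusted p under 0.05, beside 7.18% and 7.09% of all genes: TICRR, ASF1B and TOP2A higher, POLE4, CHTF18 and CCNE1 lower, a set chosen after its values were seen; CCNE1 also stands in the G1/S list. The median was 0.00, and the groups did not overlap for 15 (28.8%), beside 21.4% of all genes. TICRR, which triggers the firing of origins, had the smallest p: 27.6, 31.7 and 33.1 CPM with WT and 39.2, 35.5 and 39.5 CPM with R272K, without overlap. Its log2 fold change was 0.31 (SE 0.088, adjusted p = 0.125), and it was called (adjusted p = 0.0475) when each library's trend with gene length was removed. Among 35 tested genes of G1/S control, 0 were called by edgeR, DESeq2 or limma-voom, and the median was 0.04. At an unadjusted p under 0.05 in edgeR's test, CDKN1C was higher and CCNE1 and LIN9 lower (8.57%, beside 14.3% of all genes). CDKN1C, a cyclin-dependent kinase inhibitor, had the smallest p, at 3.93, 4.39 and 4.32 CPM with WT and 5.84, 5.66 and 5.41 CPM with R272K (0.42, adjusted p = 0.215). E2F1, chosen after its values were seen, gave -0.05 (-0.22 to 0.13) at 44.9 ± 4.14 and 43.5 ± 1.53 CPM. CDKN2A, known to be deleted in PANC-1, and CDKN2B, both inhibitors of G1 kinases, had 0 to 2 counts per library and were not tested.

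Mitotic genes, the next step of the cell cycle, lay mostly above 0 in the same fit. Of 34 tested, 33 had a positive log2 fold change, beside 49.7% of all genes and 23 of the 41 replication genes. The median was 0.17 for the mitotic list and 0.02 for the replication list. For 19 mitotic genes the groups did not overlap, all higher, beside 10.9% of all genes, and 18 (52.9%) were higher at an unadjusted p under 0.05, beside 7.18% of all genes. A single one was called: CENPF, a kinetochore protein, rose from 321, 411 and 389 CPM in the WT libraries to 494, 491 and 475 CPM in the R272K libraries. All R272K libraries were above all WT libraries, and the change was 0.38 on the log2 scale (SE 0.081, adjusted p = 0.0381). It lost the call without any 1 R272K library (0.37 to 0.40, adjusted p = 0.2 to 0.234) and in the fits on TPM (0.41, adjusted p = 0.158 to 0.543), and was 0.28 (adjusted p = 4.58e-06) without WT replicate 1, the lowest library. Without WT replicate 1, 17 mitotic genes and 0 replication genes were called, beside 5.36% of all genes, and with the length trend removed 13 and 0, beside 3.89%. The difference between the lists itself was not tested, and the mitotic genes had a higher median level, 124 against 53.6 CPM, with a median relative length of 1.34 against 1.29.

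**Figure D5:**
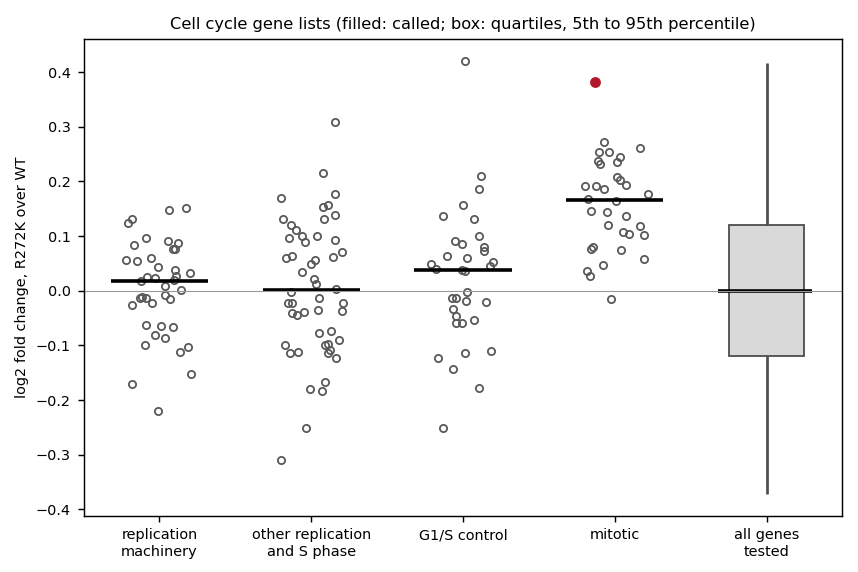
Log2 fold change, R272K over WT, of each tested gene in 4 cell cycle lists (circles, filled where called; bars are medians) and, as a box with quartiles and whiskers from the 5th to the 95th percentile, of all genes tested. The replication genes scatter around 0 between -0.22 and 0.15, whereas 33 of 34 mitotic genes lie above 0.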

How the data were processed

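HTSeq 0.10.0, SAMtools, HISAT2 2.1.0, fastp 0.23.0 and GRCh38 are named in the submitters' processing notes. Their settings, the strand used and the annotation were not given in the sources used here. Raw counts and TPM of the same 6 libraries were deposited by the authors. Each of 60835 symbols was used once, since 453 repeat on 1875 extra lines, and TPM then summed to 1000000 per library. Genes were filtered with edgeR (minimum count 10, minimum total 15), scaled by TMM and tested by its robust quasi-likelihood test, two-sided, with the group as the only term and Benjamini-Hochberg adjustment over 15911 genes. The SE is the log2 fold change divided by the square root of F, and intervals use the t quantile at the fitted degrees of freedom. Gene length came from the ratio of count to TPM. Levels of single genes are compared with each other in TPM. The medians of the mitotic and replication lists, and the range of means shared with the members, are in CPM, which is not scaled by length. One marker gene is not reported here.

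The members and lists were chosen with earlier results of these data known. Named genes are, per role, the member with the smallest p and the one with the highest TPM, any called member, and in each other list the called genes or the gene with the smallest p; other genes, among them ORC5, MCM4, POLD1, RPA3, RRM2 and TYMS, were chosen after their values were seen. Alternatives were RLE, upper quartile and library size scaling, other filters, limma-voom, DESeq2, a replicate block, limma on log2(TPM + 1) and log2(TPM + 0.1), removal of each library's length trend, and leaving out each library. Figures were drawn with matplotlib 3.10.9 and tables made with pandas 2.3.3 and numpy 2.4.6 in Python 3.11.15. Models were fitted with DESeq2 1.42.0, limma 3.58.1 and edgeR 4.0.16 in R 4.3.3.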

Additional observations from a re-analysis of the deposited data

How the results depend on the processing

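In all 18 alternatives 0 of the 41 replication genes and 0 G1/S control genes were called, beside 0.101% to 5.36% of all genes. The smallest adjusted p of any replication gene was 0.167, and the fold changes of the 41 lay between -0.32 and 0.21. At most 7 of the 41 changed sign in any alternative, and 19 to 29 of the 41 were positive. Replication genes at an unadjusted p under 0.05 numbered 1 with no filter (RFC2, beside 8.69% of all genes), 3 with the length trend removed (ORC1, ORC3 and MCM8, beside 17.4%) and 0 to 6 with a library left out (beside 9.71% to 18.5%). Of the 17 replication genes chosen by rule, 13 moved by over 1.5 times with some library left out, and 4 turned sign (CDC6, FEN1, PCNA and RRM1). The median over all 41 was 0.0381 on log2(TPM + 1), with or without the filter, 0.0382 on log2(TPM + 0.1) and -0.00864 to 0.0294 with a library left out. Genes called over the whole table numbered 474 with no filter, 619 with the length trend removed, 104, 101 and 37 on log2(TPM + 1), log2(TPM + 0.1) and log2(TPM + 1) with no filter, and 55 to 875 with a library left out. In the wider replication list 1 was called with no filter (POLE4), beside 1.29% of all genes. There were 2 with the length trend removed (TICRR and ASF1B), beside 3.89%. With a library left out 0 to 2 were called, beside 0.337% to 5.36% of all genes. They were ASF1B and TOP2A without WT replicate 1, and POLE4 without WT replicate 3. These genes were chosen after their values were seen. Mitotic genes called numbered 4 with no filter (CENPE, CENPF, MKI67 and ANLN), beside 1.29% of all genes. They numbered 2 with DESeq2 (CENPE and CENPF), beside 2.08%, and 0 in each fit on TPM, beside 0.101% to 0.654%. With the length trend removed 13 were called, beside 3.89%, and with a library left out 0 to 17, beside 0.337% to 5.36%. Mitotic genes higher at an unadjusted p under 0.05 numbered 11 to 26 with a library left out. All genes at that threshold made up 9.71% to 18.5% there, both directions together. The mitotic median was 0.176 with upper quartile scaling, 0.183, 0.188 and 0.186 in the fits on TPM, 0.177 with the length trend removed and 0.154 to 0.177 with a library left out. The causes were not tested. With the replicate number as a block 262 genes and 0 replication genes were called. Deviations of same-numbered libraries correlated at -0.068, -0.023 and -0.016, and those of other pairs at -0.060 to 0.077. Whether the numbers mark a shared culture or day cannot be told from these values. The bound of 1.38-fold for GINS3 comes from the main fit, with each gene taken singly. It is not a joint limit for the 41 genes, and no intervals are given for the alternatives. With a library left out, the log2 fold change of GINS3 itself ran from -0.32 to -0.11. Since the spread between libraries may be technical, the intervals may also leave out variation between cultures.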
